A study of Mus musculus with 8 samples.

Results

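The cells described here are CD8+ T cells of mouse bone marrow that carried the transcripts of terminal effector cells. They were chosen by measured unique molecular identifiers (UMIs, 1 for each captured transcript): at least 1 of Cd3d, Cd3e or Cd3g, at least 1 of Cd8a or Cd8b1, at least 1 of Klrg1, at least 1 of Cx3cr1 or S1pr5, and 0 of Cd4 and of Pdcd1. Of 55850 cells that passed the cell filter, 28503 were Cd8 cells and 538 of these met the rule. They are called terminal effector cells below, and the other 27965 are called other Cd8 cells.

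The marrow came from C57BL/6 mice that all carried the Runx1 Runx1t1 knock-in allele, which codes for the leukemic fusion once it is recombined. Mice of the Runx1::Runx1t1 group also carried Mx1-Cre, an interferon-inducible recombinase that acts in many blood and other tissues, and their littermates without Mx1-Cre were the controls, whose genotype the labels give as WT. All mice received Poly(I:C) at 5 mg/kg by intraperitoneal injection every other day 4 times and were sacrificed 4 weeks after induction; the age was not given in the sources used here. CD3+ T cells without the mCherry reporter of the fusion were sorted from T cell-enriched marrow, and each library was made from a pool of 2 mice, with 2 pools per group. The pool is therefore the replicate, and the smallest two-sided p that an exact permutation test of 2 against 2 pools can give is 0.333. Gene expression and T cell receptor (TCR) sequences were read from the same cells by droplet sequencing from the 5′ end. The deposited matrices held 14664 and 13693 barcodes with 102883449 and 100115383 UMIs in the Runx1::Runx1t1 pools, and 13633 and 14659 barcodes with 90958101 and 99869646 UMIs in the control pools. Any 2 libraries had between 249 and 294 barcodes in common, none of these with the same clonotype in both, and no terminal effector barcode occurred in more than 1 library.

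Terminal effector cells arise when activated CD8+ T cells are driven by the transcription factors T-bet (Tbx21), Blimp-1 (Prdm1) and Zeb2 towards cytotoxicity and away from self-renewal. KLRG1 is an inhibitory lectin receptor for cadherins, CX3CR1 is the receptor of fractalkine, and S1PR5 is a sphingosine-1-phosphate receptor that keeps cells in the circulation. Such cells usually lose the lymph node homing receptor CCR7 and the interleukin-7 receptor, and they often descend from clones that have divided many times.

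The clones are shown first, because the receptor sequences were not part of the rule and identify which terminal effector cells shared a parent cell. Below, each sequence is the CDR3 nucleotide sequence of a clone that held many of the cells. Capitals mark the junction, meaning the bases between the stretch common to contigs of that V segment and the stretch common to contigs of that J segment in these libraries. The TRA locus lies on chromosome 14 and the TRB locus on chromosome 6.
Runx1::Runx1t1 pool 1, TRAV14-1 with TRAJ49: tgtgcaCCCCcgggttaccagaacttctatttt
Same clone, TRBV12-2+TRBV13-2 with TRBJ2-1: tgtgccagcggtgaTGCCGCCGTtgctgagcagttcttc
Same clone, TRBV19 with TRBJ1-2: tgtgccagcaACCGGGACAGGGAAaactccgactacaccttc
Runx1::Runx1t1 pool 1, TRAV16 with TRAJ37: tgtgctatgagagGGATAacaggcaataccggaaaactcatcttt
Same clone, TRBV13-1 with TRBJ2-7: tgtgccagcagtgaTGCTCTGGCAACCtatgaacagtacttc
Runx1::Runx1t1 pool 2, TRAV13N-1 with TRAJ30: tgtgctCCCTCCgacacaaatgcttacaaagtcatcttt
Same clone, TRBV13-3 with TRBJ1-1: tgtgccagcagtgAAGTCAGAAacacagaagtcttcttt
The TRAV14-1 clone carried 2 TRB rearrangements. Of 104 barcodes with its TRA chain and a TRB contig, 91 held both TRB sequences, 9 only the first and 4 only the second, so the assignment by the most abundant TRB contig had divided it into 2 clonotypes of 24 and 14 terminal effector cells. Together they held 38 terminal effector cells among 102 Cd8 cells, 19.2% of the terminal effector cells with a clonotype in that pool. The TRAV16 clone was almost wholly inside the gate, with 18 of its 22 Cd8 cells. The largest clone of Runx1::Runx1t1 pool 2 had 10 of 31 Cd8 cells inside. In the control pools the largest clonotypes held 3 and 2 terminal effector cells, and 3 and 3 when cells with a pair of TRB chains were merged in the same way.

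A second set of sequences is shown because clones with different TRB chains had the same TRA segments and nearly the same TRA sequence. TRAV19 with TRAJ57 was found in 15 of the 235 terminal effector clonotypes (6.38%), and in 78 of 17683 clonotypes of Cd8 cells that held no terminal effector cell (0.441%). By cells, most of the pair lay outside the gate, as 27 of 219 Cd8 cells with it were terminal effector cells. These were 18 of 61 and 0 of 9 cells in the Runx1::Runx1t1 pools and 5 of 48 and 4 of 101 in the control pools. Examples follow, each from its own clonotype, with the junction in capitals.
Runx1::Runx1t1 pool 1, TRBV13-3 partner: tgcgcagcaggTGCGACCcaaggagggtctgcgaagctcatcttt
Runx1::Runx1t1 pool 1, TRBV29 partner: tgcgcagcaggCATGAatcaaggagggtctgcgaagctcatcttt
Control pool 1, TRBV29 partner: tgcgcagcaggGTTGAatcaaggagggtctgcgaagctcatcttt
Control pool 1, TRBV13-3 partner: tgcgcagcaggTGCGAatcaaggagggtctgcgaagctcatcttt
Control pool 2, TRBV13-3 partner: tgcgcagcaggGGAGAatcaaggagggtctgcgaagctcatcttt
All 15 of these TRA sequences were 45 bases long, as were 48 of the 78 in clonotypes without terminal effector cells. They comprised 10 distinct TRA sequences and 15 distinct TRB sequences, and 9 of the 15 used TRBV13-3. The pair occurred in 7 of 78 terminal effector clonotypes of Runx1::Runx1t1 pool 1, 0 of 34 of pool 2 (a count of 0, taken here and below to allow 3 counts, allows a share of up to 8.82%), 4 of 56 of control pool 1 and 4 of 67 of control pool 2. In clonotypes without terminal effector cells its share was 0.535%, 0.244%, 0.511% and 0.421% in the same order. The pair was thus above that share in 3 of the 4 pools, and the next TRA pair, TRAV11 with TRAJ18 of invariant natural killer T cells, had 4 clonotypes. The TRAV19 pair was singled out after its counts were seen, so it is a description with no test.

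The terminal effector cells made up 3.54% of Cd8 cells in Runx1::Runx1t1 pool 1 (257 of 7250, 95% Wilson interval 3.14 to 3.996). They were 1.12% in Runx1::Runx1t1 pool 2 (85 of 7568, interval 0.909 to 1.39). The shares were 1.36% in control pool 1 (87 of 6417, interval 1.10 to 1.67) and 1.4997% in control pool 2 (109 of 7268, interval 1.25 to 1.81). The intervals cover counting error only. Only Runx1::Runx1t1 pool 1 stood apart, and the other pool of that group had the lowest of the 4 shares. The mean was 2.33% ± 1.71 (SD, n = 2 pools) in Runx1::Runx1t1 and 1.43% ± 0.10 (SD, n = 2 pools) in control mice, a difference of 0.91 percentage points (exact permutation test, two-sided, p = 1). Without Runx1::Runx1t1 pool 1 the difference was -0.30 percentage points. When each clonotype was counted once per class, the shares were 1.69%, 1.02%, 1.17% and 1.26% in the same order of pools.

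**Figure D1:**
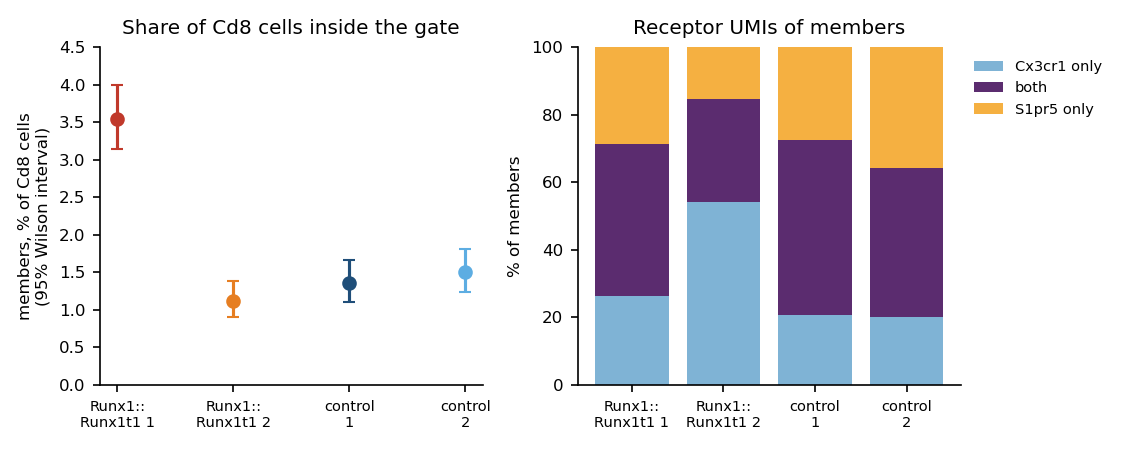
Left, share of Cd8 cells that met the rule in each pool, with 95% Wilson intervals that cover counting error only; Runx1::Runx1t1 pool 1 is at 3.54% and the other 3 pools lie between 1.12% and 1.4997%. Right, share of the terminal effector cells of each pool with UMIs of Cx3cr1 only, of both receptors or of S1pr5 only; Runx1::Runx1t1 pool 2 has 54.1% with Cx3cr1 only.

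The levels of the genes of the rule are given as a description. Klrg1 was at 310 ± 37.7 CPM (counts per 1000000 UMIs, SD, n = 4 pools) in terminal effector cells and 5.77 ± 3.10 in other Cd8 cells. Cx3cr1 was at 207 ± 6.57 CPM and S1pr5 at 188 ± 66.4 CPM, against 4.97 and 3.36 CPM in other Cd8 cells. The receptors were not evenly spread over pools. In Runx1::Runx1t1 pool 2, 54.1% of the cells held only Cx3cr1 and 15.3% only S1pr5, against 26.5%, 28.8% in Runx1::Runx1t1 pool 1, 20.7%, 27.6% in control pool 1 and 20.2%, 35.8% in control pool 2. Free RNA in droplets can place a UMI in a cell that does not express the gene, so the gate was also applied to naive-class cells, which had Lef1 and Ccr7 UMIs and no Cd44 UMI. In these, 0.437%, 0.154%, 0.205% and 0.260% met the rule, below the share among all Cd8 cells of the same pool in every case. Median UMIs were 5298, 6262, 5099 and 3982 per terminal effector cell and 7943.5, 8201, 6701 and 6894 per naive-class cell, so the naive cells were the deeper ones.

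The gate was permissive at its edges. Exactly 1 Klrg1 UMI was present in 255 of the 538 cells, and 180 had exactly 1 UMI of Cx3cr1 and S1pr5 together. Just outside, 805 cells met all conditions but the one on Klrg1, 544 lacked only a receptor UMI and 46 failed only by a Pdcd1 UMI. A further 96 lacked only a Cd8 UMI and 41 failed only by a Cd4 UMI. Zeb2, the marker of the label that the rule did not use, was at 262 CPM in cells with 1 Klrg1 UMI and 281 CPM in cells with more. It was at 169 CPM in the cells that lacked only Klrg1, 59.3 CPM in those that lacked only a receptor, 99.0 CPM in those with Pdcd1 and 14.4 CPM in all other Cd8 cells. Cells with a Cd4 UMI had 139 CPM, and cells without a Cd8 UMI had 427 CPM, above the terminal effector cells in every pool (472, 452, 691 and 354 CPM, from 34, 2, 10 and 50 cells). The cells left out for Klrg1 alone thus lay nearer to the terminal effector cells in Zeb2 than those left out for the receptors.

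The label was compared with Zeb2 (chr2:44983632-45117395, minus strand, GRCm38), a repressor that works with T-bet in terminal differentiation. Zeb2 is a marker of the label, chosen with earlier results of these data known, and so is not an independent check. Its level in terminal effector cells was 267 and 225 CPM in the Runx1::Runx1t1 pools and 286 and 328 CPM in the control pools. In other Cd8 cells it was 16.2, 13.8, 14.1 and 13.3 CPM. The ranges did not overlap, and Zeb2 rose 16.0-fold (log2 fold change 4.002, SE 0.10, adjusted p = 3.1e-21, edgeR's quasi-likelihood test with pool as a block). A Zeb2 UMI was found in 74.7% of the 538 cells. Other features went less far with the label: 60.04% of the cells held a Gzmk UMI, 21.0% an Il7r UMI and 22.3% a UMI of Mki67 or Top2a.

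Markers of other cells that the sort could hold were counted over whole lists. The natural killer (NK) cell list of 10 genes summed to 4696, 5358, 3115 and 3333 CPM in terminal effector cells against 357, 754, 383 and 328 CPM in other Cd8 cells. Gzma alone gave 4049, 5191, 2576 and 2633 CPM of this sum. Ncam1 and Khdc1a were at 0 in terminal effector cells of all 4 pools, and at no more than 0.147 and 0.105 CPM in other Cd8 cells. The gamma-delta T cell list summed to 52.5, 23.3, 112 and 67.3 CPM against 48.7, 87.0, 63.7 and 63.4 CPM, with Trgv2 the most abundant, and 24 of the 538 cells held a Trdc UMI. The B cell list summed to 47.5, 74.5, 143 and 74.0 CPM against 108, 124, 172 and 144 CPM, with Ms4a1 at 0 in every pool. The myeloid list summed to 24.0, 1.55, 43.3 and 35.3 CPM against 27.3, 32.5, 277 and 95.6 CPM, and Csf1r, Cd14, Fcgr1 and Ly6g were at 0 in every pool. The erythroid list was at 5.59, 9.31, 9.99 and 33.7 CPM against 12.9, 43.9, 16.5 and 25.0 CPM, and the progenitor list at 17.3, 0, 1.66 and 38.7 CPM against 13.9, 12.7, 5.70 and 19.1 CPM. Both TCR chains were assembled in 77.0%, 67.1%, 74.7% and 69.7% of the terminal effector cells, against 79.2%, 74.5%, 78.2% and 81.2% of other Cd8 cells. The share was the lower one in every pool, and the cause was not tested. Of the terminal effector cells, 4 carried TRAV11 with TRAJ18.

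To see what set the terminal effector cells apart within the CD8 compartment, UMIs were summed per pool and compared with those of other Cd8 cells in the same pools, leaving the genes of the rule untested. Granzyme A, Zeb2, integrins of the CD11 family and cytoskeletal genes were higher, and genes of lymph node homing and self-renewal were lower. Of 11979 genes tested, 1278 were higher (10.7%) and 1306 lower (10.9%) at an adjusted p under 0.05. Without the scaling by trimmed means (TMM), 2995 were higher and 713 lower, and the median over all genes moved from -0.03 to 0.22 on the log2 scale, so directions are given relative to the median gene. Without Runx1::Runx1t1 pool 1 the counts were 765 and 804. The median depth of terminal effector cells was 5298, 6262, 5099 and 3982 UMIs, below the 7806, 7209, 6922 and 7052 UMIs of other Cd8 cells in every pool. With cells thinned to 2000 UMIs, 211 of 9806 genes were higher and 441 lower, with a median of -0.16. The list counts below are read against these shares.

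The transcription factors divided by role. Of 12 terminal effector factors, 8 rose and none fell, with a median log2 fold change of 1.02 against -0.03 over all genes. Tbx21, which codes for T-bet, was at 177, 160, 176 and 225 CPM in the terminal effector cells of the 4 pools (Runx1::Runx1t1 pools first, also below) and at 41.7, 64.4, 47.7 and 62.5 CPM in other Cd8 cells. It rose by 1.56 on the log2 scale (SE 0.10, adjusted p = 1.5e-12), with no overlap between the classes. Rora, a nuclear receptor, rose by 1.95, Bhlhe40, a stress-responsive factor of effector T cells, by 1.61, Id2, an inhibitor of E proteins, by 1.17 and Klf3 by 0.68. Stat4, the signal transducer of interleukin-12, was at 139, 115, 155 and 156 CPM and did not pass (log2 fold change 0.01, adjusted p = 0.98).

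Of 12 memory and naive factors, 10 fell and none rose, with a median of -0.90. Tcf7, which codes for TCF-1 and sustains self-renewing T cells, was at 186, 104, 223 and 151 CPM against 324, 253, 408 and 333 CPM in other Cd8 cells. It fell by 1.24 on the log2 scale (SE 0.09, adjusted p = 7.3e-12), again with no overlap. Satb1, a chromatin organizer of developing T cells, fell by 1.79, Id3 by 1.54 and Lef1, the partner of TCF-1, by 1.20. Eomes, the T-box factor of memory cells, did not pass, at 197, 132, 102 and 79.1 CPM (log2 fold change 0.28, adjusted p = 0.065).

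Cytotoxic granule genes rose in 8 of 12 cases and fell in none (median 1.14). Gzma (chr13:113093825-113100981, minus strand, GRCm38) codes for a trypsin-like granule protease. It had 4049, 5191, 2576 and 2633 CPM in terminal effector cells and 209, 665, 32.6 and 39.6 CPM in other Cd8 cells. It rose by 4.64 on the log2 scale (SE 0.31, adjusted p = 2.4e-12) and was the largest rise among the named genes of this comparison. Gzmb, the granzyme that cleaves caspases, was at 792, 863, 366 and 554 CPM against 117, 229, 19.7 and 37.9 CPM and rose by 2.87 (SE 0.19). Serpinb9, an inhibitor that protects the cell from its own granzyme B, rose by 1.65 and Prf1, the pore former perforin, by 1.45. Cst7, a cystatin of cytotoxic granules, did not pass, at 224, 203, 223 and 212 CPM (log2 fold change -0.23, adjusted p = 0.095).

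Cytokine and chemokine genes did not go one way, with 4 of 10 higher and 2 lower (median 0.08). Ifng, which codes for interferon gamma, rose by 1.48, and the chemokine genes Ccl4 and Ccl5 by 1.63 and 1.60. Xcl1, which attracts cross-presenting dendritic cells, was at 97.8, 55.8, 281 and 135 CPM against 250, 271, 330 and 505 CPM and fell by 1.57 on the log2 scale (SE 0.17).

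Among 12 naive and memory surface genes, 8 fell and 2 rose (median -1.21). Ccr7, the lymph node homing receptor, was at 113, 97.7, 79.9 and 101 CPM in terminal effector cells and at 610, 586, 531 and 427 CPM in other Cd8 cells. It fell by 2.70 on the log2 scale (SE 0.09, adjusted p = 6.8e-18), and every pool of one class lay below every pool of the other. Il7r fell by 1.82, Dapl1 by 2.55 and the costimulatory receptor gene Cd27 by 0.73. Ly6c2 and Cd44, surface proteins of antigen-experienced cells, were the 2 that rose.

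Migration receptors and integrins rose in 12 of 16 cases and fell in 2 (median 0.99). Itgam, the CD11b integrin chain, was at 18.4, 26.4, 16.6 and 6.73 CPM against 0.787, 0.89, 2.54 and 1.32 CPM and rose by 3.56 on the log2 scale (SE 0.42, 64 UMIs in all terminal effector cells). Itgax, the CD11c chain, was at 77.1, 66.7, 49.9 and 26.9 CPM against 6.36, 5.23, 5.19 and 4.85 CPM and rose by 3.10 (SE 0.21). Both integrin chains are better known from myeloid cells. The 11 myeloid markers summed to 24.0, 1.55, 43.3 and 35.3 CPM in these cells, with Mpo the most abundant in the Runx1::Runx1t1 pools and Lyz2 in the control pools, and their part in the result was not tested. Itgb1 rose by 1.68, the chemokine receptor gene Ccr2 by 1.49 and S1pr4 by 1.28, while the tissue residency genes Itgae and Cxcr6 were the 2 that fell. Cxcr6 was lower in the Runx1::Runx1t1 pools only, at 26.3 against 55.8 and 90.0 against 216 CPM, and higher in the control pools, at 69.9 against 29.9 and 69.0 against 50.6 CPM. S1pr1, the main receptor for exit from tissues, did not pass, at 97.2, 119, 117 and 85.8 CPM (log2 fold change -0.12, adjusted p = 0.52).

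**Figure D2:**
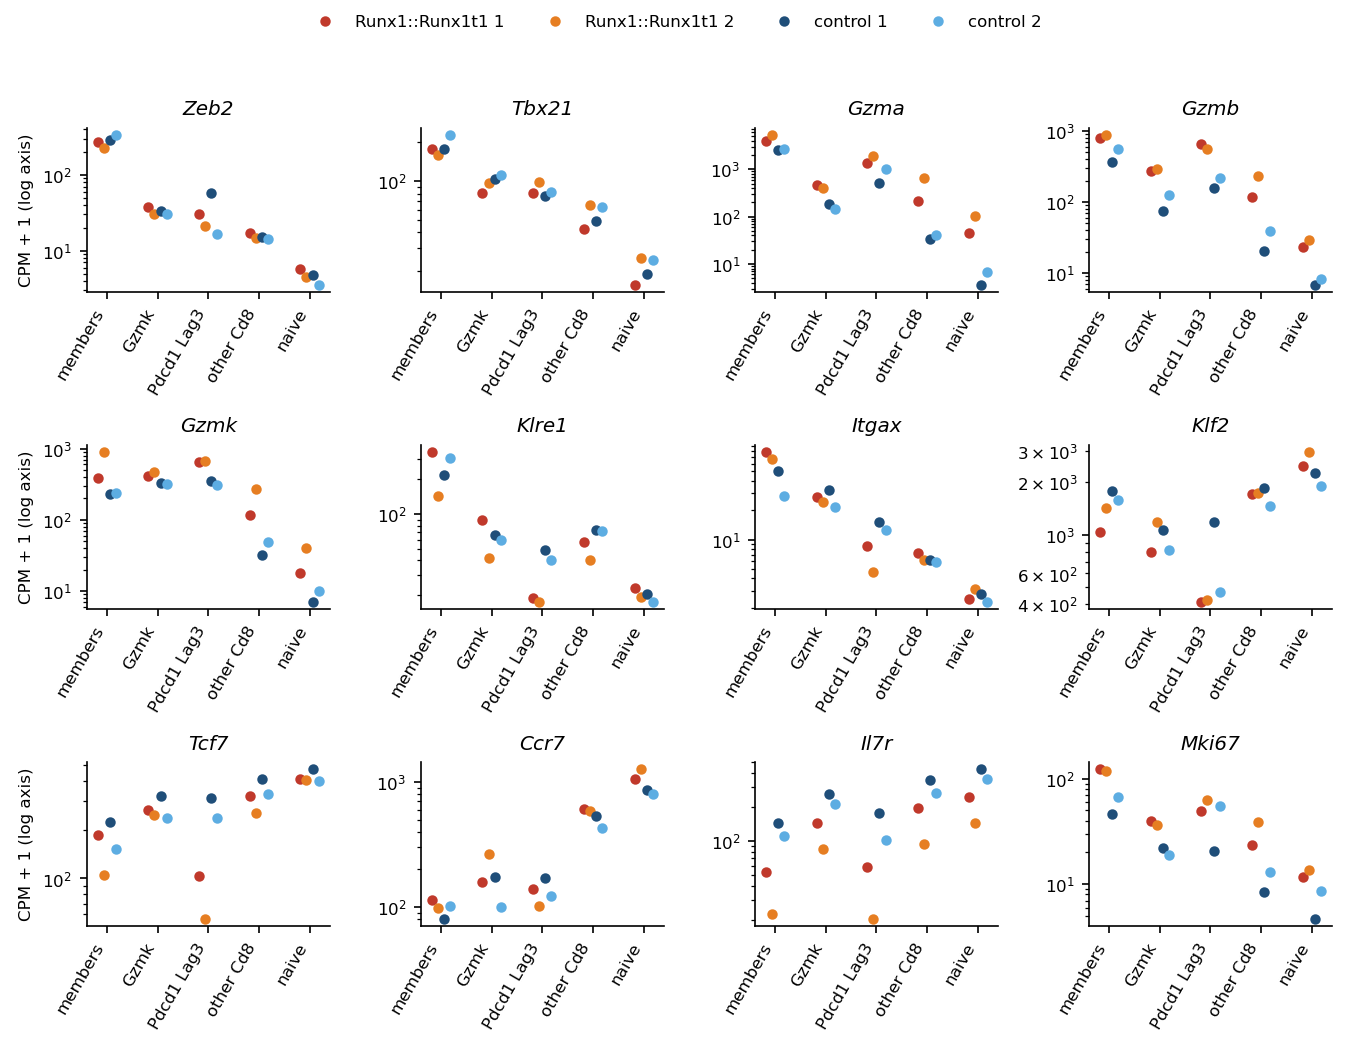
Level of 12 genes in CPM plus 1 (log axis) in each pool, for terminal effector cells (members), the Gzmk class, the Pdcd1 Lag3 class, other Cd8 cells and the naive class; each point is 1 pool. Zeb2 lies between 225 and 328 CPM in terminal effector cells and at 14.3 CPM on average in other Cd8 cells, while Klf2 in terminal effector cells lies above the Gzmk class in every pool.

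NK receptors and adaptors rose in 10 of 20 cases and fell in none (median 0.63). Klre1, a lectin receptor subunit, was at 341, 144, 220 and 306 CPM against 56.4, 39.0, 71.7 and 70.8 CPM and rose by 1.85 on the log2 scale (SE 0.11, adjusted p = 4e-13). Klra9, an inhibitory Ly49 receptor, rose by 2.60, Klrc1, which codes for NKG2A, by 1.63 and Klrk1, which codes for the activating receptor NKG2D, by 1.499. The adaptor gene Tyrobp did not pass, at 86.1, 3.10, 73.3 and 77.4 CPM (adjusted p = 0.28), and Fcer1g did not pass either, at 82.7, 1.55, 163 and 165 CPM (adjusted p = 0.17). Runx1::Runx1t1 pool 2 was low in both adaptors, and also had the lowest level of Klrb1c, 15.5 CPM against 66.6 to 130 CPM in the other 3 pools. Of the 10 NK cell markers, 5 of 8 tested were higher than in other Cd8 cells (Klre1, Gzma, Klrb1c, Klra8 and Ncr1) and none lower, and all 6 tested were higher than in the Gzmk class. The part of NK cells in these values was not tested. At least 1 Ly49 (Klra) UMI was found in 37.0%, 12.9%, 27.6% and 33.0% of the terminal effector cells, and in 16.9%, 10.6%, 24.4% and 22.9% of other Cd8 cells.

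Inhibitory receptors and exhaustion genes were lower in 7 of 13 cases and higher in 1 (median -0.39). The rule had removed cells with a Pdcd1 UMI from the terminal effector cells and not from other Cd8 cells. In this fit, what the gate fixed and what the cells differed in thus cannot be told apart for genes that go with Pdcd1. With no condition on Pdcd1, 46 cells joined the terminal effector cells. Of the 92 genes named against other Cd8 cells, over all lists, 90 then kept their call, 2 were weaker and 0 reversed. All further Cd8 cells with a Pdcd1 UMI stayed in the comparator, so this alternative cannot tell the gate from the cells. Tox, the factor that maintains exhausted cells, was at 30.2, 66.7, 40.0 and 43.7 CPM against 70.2, 178, 53.8 and 45.5 CPM and fell by 1.18 on the log2 scale (SE 0.15). Ctla4 fell by 1.19 and Cd200r1 by 2.70. Lag3 was at 21.8, 41.9, 25.0 and 13.5 CPM against 45.3, 191, 7.06 and 5.38 CPM. Its fall in the fit (1.28 on the log2 scale, SE 0.30, adjusted p = 0.0019) came from the Runx1::Runx1t1 pools, since the terminal effector cells had the higher level in both control pools. The same held for Tigit, another of the 7, at 56.6 against 29.7 and 35.3 against 32.9 CPM in the control pools and 113 against 126 and 172 against 284 CPM in the Runx1::Runx1t1 pools.

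Cytokine receptors did not go one way (4 of 13 higher, 4 lower, median 0.03). Il18rap, a chain of the interleukin-18 receptor, rose by 2.15, and Il2rb, the beta chain shared by the interleukin-2 and interleukin-15 receptors, fell by 0.36, being lower in the Runx1::Runx1t1 pools only. Cytoskeleton and S100 genes rose in 14 of 15 cases (median 1.14), among them the galectin genes Lgals1 by 2.62 and Lgals3 by 2.58, and the scaffold gene Ahnak by 1.55. Cell cycle genes rose in 13 of 15 cases (median 1.36). Mki67, a marker of dividing cells, was at 121, 118, 44.95 and 65.6 CPM against 22.5, 37.9, 7.46 and 12.1 CPM and rose by 1.99 on the log2 scale (SE 0.14). Senescence genes rose in 5 of 10 cases and fell in 1. Cdkn2a, an inhibitor of cell cycle kinases, was among those that rose, by 2.13 (SE 0.38, at most 32.6 CPM), with Lmnb1, a nuclear lamina gene whose loss is usual in senescence, by 1.31. Cdkn1a, which codes for p21, rose by 0.49, and its direction turned when cells were thinned to 2000 UMIs (-0.22).

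Beyond the lists, the largest rises included genes of small total count. Cmklr1, the chemerin receptor, was at 12.3, 23.3, 19.98 and 10.1 CPM against a mean of 0.754 CPM, and rose by 4.20 on the log2 scale from 55 UMIs. Rac3, a small GTPase, rose by 4.49 from 50 UMIs. Kcnj8, a subunit of an ATP-sensitive potassium channel, was at 43.6, 41.9, 48.3 and 130 CPM against 5.52 CPM and rose by 3.29. Fcgr2b, the inhibitory Fc gamma receptor, rose by 3.13. Among the largest falls were Il6ra, the interleukin-6 receptor chain of naive cells, by 3.11 and Rgs10, a regulator of G protein signaling, by 2.73. Lyz2 fell by 2.88, from 11.7, 18.9, 206 and 74.4 CPM in other Cd8 cells to 7.26, 0, 11.7 and 18.5 CPM. It is the lysozyme gene of myeloid cells and belongs to the myeloid marker list. When cells with B cell or myeloid UMIs were left out its log2 fold change was 0.29. Leaving out cells by myeloid UMIs can itself remove Lyz2 counts, so the source of the fall was not tested.

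The first effector class used as a comparator was the one with Gzmk, a granzyme of transitional effector and memory cells: Cd8 cells with a Gzmk UMI and neither Pdcd1, Lag3 nor the terminal effector gate, 2780 cells in all. Against it, 697 of 9099 genes were higher in terminal effector cells (7.66%) and 674 lower (7.41%). Without Runx1::Runx1t1 pool 1 the counts were 455 and 434, and without TMM they were 1595 and 432 and the median moved to 0.15 on the log2 scale. Zeb2 was at 36.7, 29.9, 32.3 and 29.6 CPM in the Gzmk class and 7.64-fold higher in terminal effector cells (log2 fold change 2.93, SE 0.10, adjusted p = 1.7e-12). Gzma was at 476, 405, 182 and 142 CPM there and rose by 3.53 (SE 0.12). Itgam was at 0.759, 1.08, 0.674 and 1.06 CPM there and rose by 3.996 (SE 0.39).

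By list, 7 of 12 terminal effector factors, 6 of 11 cytotoxic genes, 13 of 17 NK receptors and adaptors, 14 of 15 cytoskeleton genes and 11 of 15 cell cycle genes were higher than in the Gzmk class. Lower were 7 of 11 memory and naive factors, 8 of 11 naive and memory surface genes and 6 of 10 inhibitory genes. Klf2, the factor that sustains S1pr1 expression, was the only one of the 11 memory and naive factors that rose, by 0.42 (SE 0.08, adjusted p = 0.0011): it had 1027, 1410, 1778 and 1563 CPM in terminal effector cells and 790, 1175, 1063 and 821 CPM in the Gzmk class. Against other Cd8 cells, which include naive cells, Klf2 was among those that fell. The granzyme gene Gzmm and Cst7 (by 0.59) fell, although 6 cytotoxic genes rose. Xcl1 fell by 1.79, Il2 by 2.00 and Tnf, which was lower in 3 of 4 pools, by 0.64. Il7r, Cxcr3 and Ly6a fell by 1.34, 1.22 and 1.02. Havcr2, which codes for TIM-3, was the 1 inhibitory gene that rose (1.98, SE 0.40). Of the other lists, 3 of 9 cytokines were higher and 3 lower, 9 of 15 migration genes higher and 1 lower, 2 of 12 cytokine receptors higher and 2 lower, and 5 of 9 senescence genes higher and 1 lower.

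**Figure D3:**
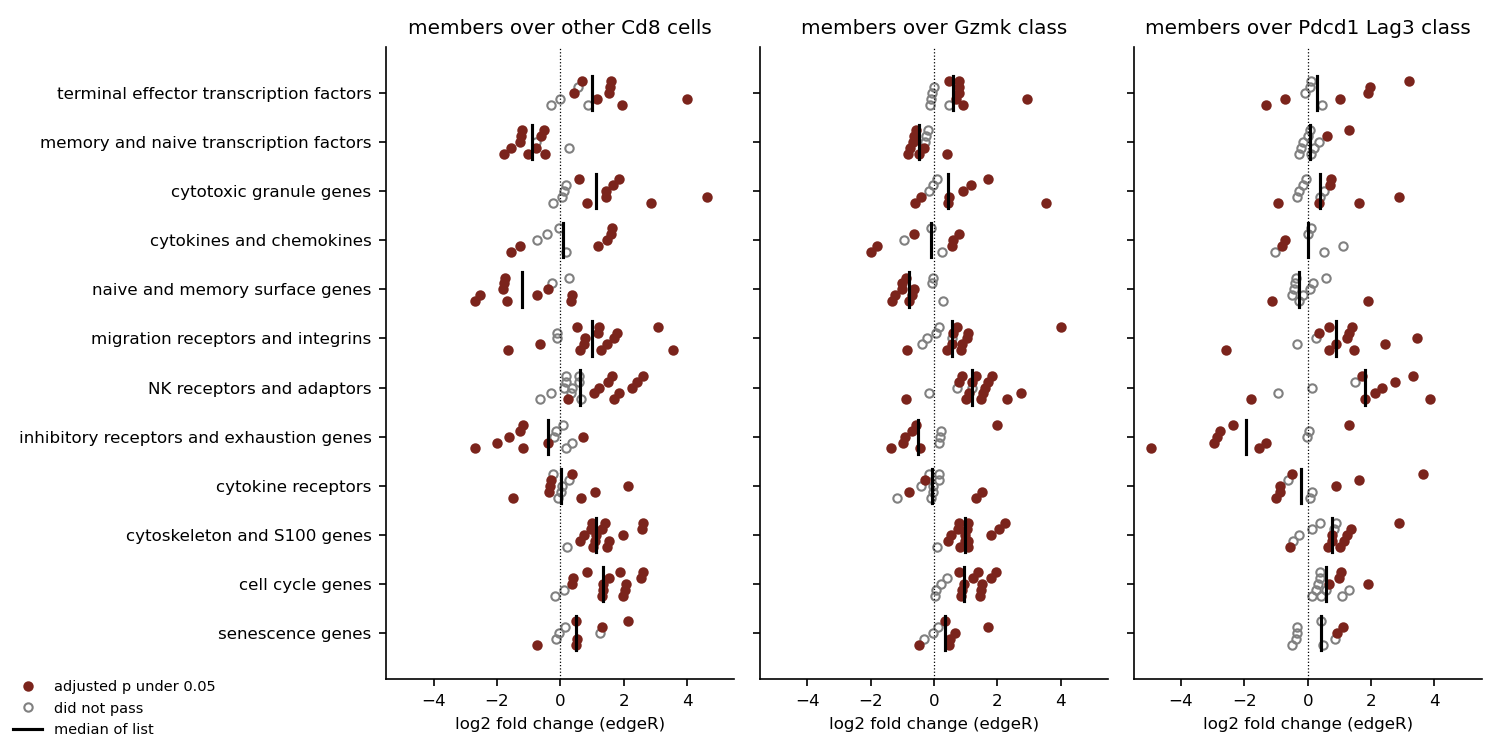
Log2 fold change of every tested gene of each list in terminal effector cells (members) over other Cd8 cells (left), the Gzmk class (middle) and the Pdcd1 Lag3 class (right); filled points have an edgeR adjusted p under 0.05 and the bar is the median of the list. The median of the inhibitory and exhaustion genes is -0.39, -0.49 and -1.96 from left to right, and that of the terminal effector factors 1.02, 0.59 and 0.28.

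The other comparator was the class with UMIs of both Pdcd1 and Lag3, inhibitory receptors of chronically stimulated cells. It held 461 and 2104 cells in the Runx1::Runx1t1 pools and only 43 and 32 in the control pools. Against it, 390 of 6464 genes were higher in terminal effector cells (6.03%) and 388 lower (6%). Without Runx1::Runx1t1 pool 1 these counts were 164 and 120, and without pool 2 of that group 253 genes were higher. Zeb2 was at 29.6, 20.1, 56.2 and 15.6 CPM in this class and rose by 3.21 on the log2 scale (SE 0.19, adjusted p = 3e-06). Gzma, at 1348, 1926, 503 and 1009 CPM, rose by 1.62 (SE 0.14), and Gzmk, at 650, 678, 346 and 308 CPM, did not pass (-0.35, adjusted p = 0.24).

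Of the inhibitory list, 7 of 10 tested genes were lower and 1 higher (median -1.96). The comparator was chosen by Pdcd1 and Lag3 and the terminal effector cells by the absence of Pdcd1, so this direction was partly set by the rules. Tigit was at 113, 172, 56.6 and 35.3 CPM in terminal effector cells against 895, 796, 478 and 374 CPM and fell by 2.88 on the log2 scale (SE 0.18). Ctla4 fell by 2.97, Tox by 2.78 and Cd200r1 by 4.96. The 1 that rose was Nr4a1, an early response factor, by 1.303. Higher in terminal effector cells were Klf2 by 1.29, Itgax by 3.44, Ccr2 by 2.45, Il18rap by 3.64, Klre1 by 3.32, Ly6c2 by 1.89 and Gzmm by 2.89, while Cxcr6 fell by 2.59 and Cd27 by 1.13. Batf and Prdm1, which were in the terminal effector list, fell by 1.32 (lower in 3 of 4 pools) and 0.71, whereas Tbx21 rose by 1.03 and Rora by 1.98. By list, 4 of 10 terminal effector factors were higher and 2 lower, 2 of 10 memory factors higher, 5 of 12 cytotoxic genes higher and 1 lower, 0 of 7 cytokines higher and 2 lower, and 1 of 11 surface genes higher and 1 lower. Further, 10 of 13 migration genes were higher and 1 lower, 7 of 11 NK genes higher and 1 lower, 3 of 10 cytokine receptors higher and 4 lower, 8 of 15 cytoskeleton genes higher and 1 lower, 4 of 13 cell cycle genes higher and 2 of 9 senescence genes higher.

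Adgrg1, Osgin1 and Chn2, genes that the study named in these mice, were lower in terminal effector cells than in the Pdcd1 Lag3 class. Adgrg1, an adhesion G protein-coupled receptor, had 0.559, 9.31, 3.33 and 10.1 CPM there, 15 UMIs in all, and 8 of 538 cells held one. It was at 115, 186, 28.1 and 35.0 CPM in the Pdcd1 Lag3 class, against which it fell by 4.55 on the log2 scale (SE 0.46, adjusted p = 9.3e-05). Osgin1, an oxidative stress gene, fell by 4.22 and Chn2, a Rac-regulating protein, by 2.37 in the same comparison. The study picked these genes from these mice together with Pdcd1 and Lag3, by which the comparator was chosen, and the terminal effector cells lacked Pdcd1. Their direction was thus partly set by the rules and is not independent evidence. Against the Gzmk class none of the 3 passed (Adgrg1 adjusted p = 0.27). Against other Cd8 cells Adgrg1 and Osgin1 fell, by 2.40 and 2.07 on the log2 scale. For Adgrg1 the levels in other Cd8 cells were 12.3, 61.0, 4.35 and 11.4 CPM, so the gap was wide in the Runx1::Runx1t1 pools and narrow in the control pools. Osgin1 was the higher in terminal effector cells in both control pools, at 6.66 against 3.55 and 5.05 against 4.46 CPM. Chn2 did not pass against other Cd8 cells (adjusted p = 0.75), at 27.4, 15.5, 6.66 and 25.2 CPM against 15.2, 61.0, 9.12 and 10.1 CPM. The largest Cd8 clonotype of Runx1::Runx1t1 pool 2, TRAV6-6 with TRBV1, had 1102 cells, of which 0 were terminal effector cells (a share of up to 0.272% is allowed) and 3 held a Klrg1 UMI (0.272%).

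Clone sizes were then taken from the TCR contigs, as the rule had not used them. A clonotype was called expanded when it held at least 2 Cd8 cells of the pool. In terminal effector cells with a clonotype, 85.4%, 59.6%, 58.5% and 65.8% belonged to an expanded clonotype. In other Cd8 cells the shares were 21.9%, 43.4%, 7.05% and 13.2%. The terminal effector cells had the higher share in 4 of 4 pools, by 45.9 percentage points ± 20.5 (SD, n = 4 pools, exact paired permutation test, two-sided, p = 0.125, the smallest that 4 pairs can give). The gap was narrowest in Runx1::Runx1t1 pool 2, where other Cd8 cells were also expanded. Other Cd8 cells included 10054 naive-class cells, so these shares do not set the terminal effector cells against other effector cells.

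The chance that a pair of terminal effector cells drawn from a pool shared a clonotype was 3.91%, 5.26%, 0.529% and 0.316%, against 0.126%, 4.18%, 0.00488% and 0.0141% in other Cd8 cells. It was higher in 4 of 4 pools, by 1.42 percentage points ± 1.61 (SD, n = 4 pools, exact paired permutation test, two-sided, p = 0.125), and by 0.636 without Runx1::Runx1t1 pool 1. The expansion index, 1 minus the normalized entropy of the clonotypes, was 0.144, 0.109, 0.0147 and 0.00907 in terminal effector cells and 0.0438, 0.205, 0.00475 and 0.0128 in other Cd8 cells. This index depends on how many cells are counted, and it was the higher one in terminal effector cells in only 2 pools.

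Between the groups, the share in expanded clonotypes was 72.5% ± 18.2 in Runx1::Runx1t1 and 62.1% ± 5.18 in control terminal effector cells (SD, n = 2 pools each, exact permutation test, p = 0.667). The size of the expanded clones differed more. Clonotypes of at least 10 Cd8 cells held 48.5% and 42.1% of the terminal effector cells with a clonotype in the Runx1::Runx1t1 pools and 6.15% and 11.8% in the control pools. In other Cd8 cells the same shares were 12.1% and 37.1% against 0.95% and 3.94%, so the groups were apart there too. In terminal effector cells the groups did not overlap, and the difference of 36.3 percentage points had an exact permutation p of 0.333, the smallest the design allows.

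**Figure D4:**
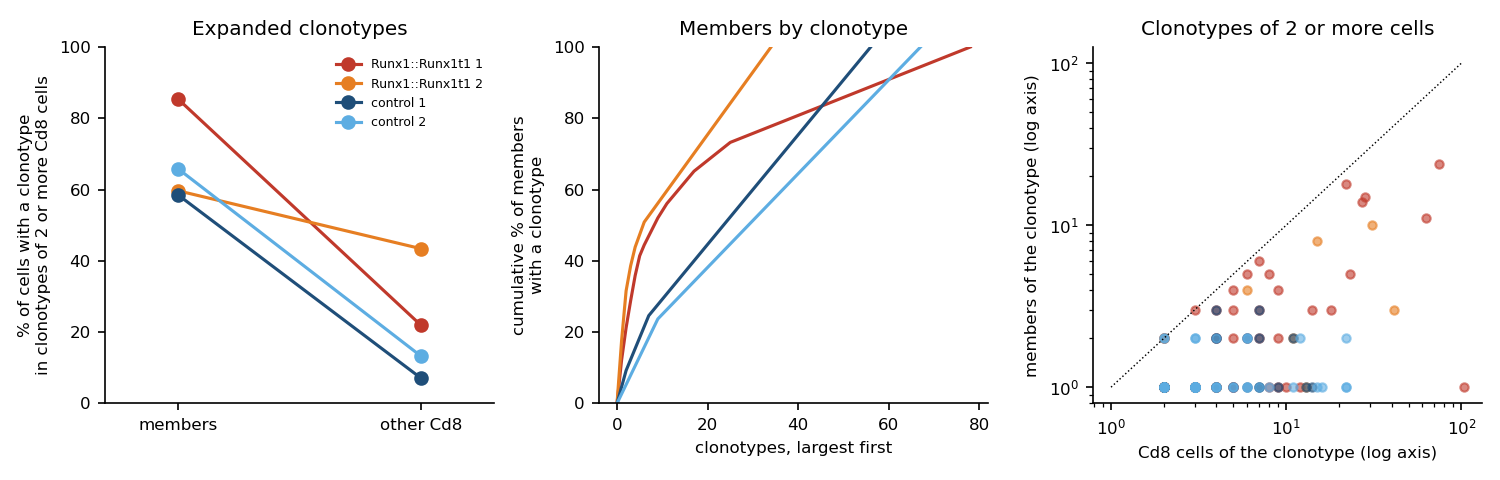
Left, share of cells with a clonotype that belonged to a clonotype of 2 or more Cd8 cells, for terminal effector cells (members) and other Cd8 cells of the same pool (joined); it is higher in terminal effector cells in all 4 pools. Middle, cumulative share of terminal effector cells over clonotypes ordered by size; right, terminal effector cells against all Cd8 cells for each clonotype of 2 or more Cd8 cells (log axes, the dotted line marks clonotypes wholly inside the gate).

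The 235 clonotypes comprised 78 and 34 in the Runx1::Runx1t1 pools and 56 and 67 in the control pools, and none was found in more than 1 pool. Of these, 105 consisted of a single Cd8 cell and 124 also held Cd8 cells outside the gate. Cells of the Gzmk class were found in 90 clonotypes, cells of the Pdcd1 Lag3 class in 15 and naive-class cells in 6. The clone-mates outside the gate numbered 789: 141 held a Pdcd1 UMI (17.9%), and of those without one 562 lacked a Klrg1 UMI (71.2% of all clone-mates) and 86 had Klrg1 but no receptor UMI (10.9%). Clones differed widely in how much of them was inside the gate. In Runx1::Runx1t1 pool 2, a clonotype of TRAV16 with TRAJ49 had 41 Cd8 cells, of which 3 were terminal effector cells and 31 held Pdcd1. In that clonotype 68.3% of the cells had Klrg1 and all had Gzmk, but 24.4% had Zeb2 and 9.76% had Gzma.

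The clone-mates resembled the terminal effector cells only in part. Zeb2 was at 104, 123, 167 and 88.0 CPM in clone-mates, below the 286, 231, 332 and 318 CPM of terminal effector cells with a clonotype and above the 10.1, 11.2, 9.92 and 10.7 CPM of other clonotypes. Tbx21 had the same order in every pool, with 111, 127, 150 and 159 CPM in clone-mates. Gzma was at 530, 1052, 421 and 355 CPM in clone-mates, between the 171, 707, 16.4 and 27.2 CPM of other clonotypes and the 4199, 5256, 2423 and 1871 CPM of terminal effector cells. Klf2 was lower in clone-mates than in terminal effector cells in every pool, at 477, 758, 1362 and 759 CPM against 981, 1494, 1496 and 1464 CPM. The median depth was 5321, 6478.5, 4601 and 5133 UMIs in clone-mates and 5179.5, 5980, 5515 and 3825 UMIs in terminal effector cells. As the clone-mates were set apart by lacking the rule's transcripts or by holding Pdcd1, these levels are a description.

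**Figure D5:**
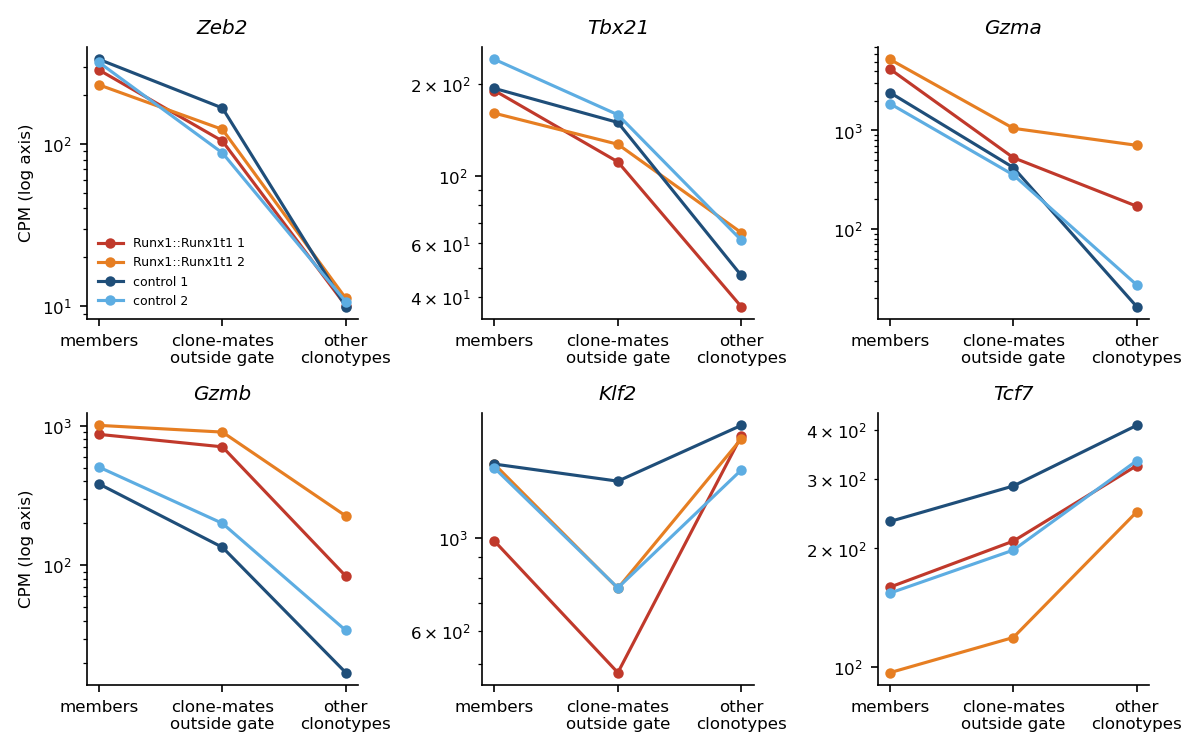
CPM (log axis) of 6 genes in terminal effector cells with a clonotype (members), in their clone-mates outside the gate and in other Cd8 cells of other clonotypes; each line is 1 pool. Zeb2 and Tbx21 of the clone-mates lie between the other sets in all 4 pools, and Klf2 is lowest in the clone-mates in all 4.

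Within the terminal effector cells, those with both receptors had the highest Zeb2 level in 3 of 4 pools, 342, 439 and 324 CPM in the Runx1::Runx1t1 pools and control pool 1, and in control pool 2 it was 342 CPM against 347 CPM in cells with only Cx3cr1. Cells with only Cx3cr1 had 170, 146, 261 and 347 CPM, and those with only S1pr5 had 254, 214, 217 and 301 CPM. Gzma was higher in cells with only Cx3cr1 than in those with only S1pr5 in the control pools, 1595 against 902 CPM and 4256 against 1283 CPM. In the Runx1::Runx1t1 pools it was not, with 3404 against 3695 CPM and 4399 against 4530 CPM. The smallest of these sets had 13 cells, and the values carry no test.

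The question put to the groups was whether the fusion in other marrow cells went with a change within the terminal effector cells. Of 6581 genes tested, 9 were higher (0.137%) and 2 lower (0.0304%) in Runx1::Runx1t1 at an adjusted p under 0.05, and 560 had an unadjusted p under 0.05. The 9 were Lmnb1, the histone genes Hist1h2ap and Hist1h2ae, Ccna2, Ube2c, Cpa3, Trav16, Trbv30 and Trbv13-2, and the 2 were Trbv16 and Trav7-3. Leaving out 1 pool moved the count of higher genes between 3 and 164, and 2 of the 11 calls were kept whichever pool was left out. Each of these fits leaves 1 pool in a group, which is assumed to vary like the 2 pools of the other group.

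The histone, cyclin, lamin and ubiquitin conjugase genes belong to dividing cells or the nucleus. Lmnb1 was at 249 and 306 CPM in the Runx1::Runx1t1 pools and 117 and 136 CPM in the control pools (log2 fold change 1.10, SE 0.17, adjusted p = 0.035). Ccna2, which codes for the S and G2 phase cyclin A2, was at 75.4 and 66.7 CPM against 25.0 and 25.2 CPM (1.502, SE 0.25, adjusted p = 0.044). By DESeq2, 9 of the 11 calls were kept, but not that of Ccna2 (adjusted p = 0.44). Nor did Ccna2 pass by edgeR with Scrublet doublets left out (adjusted p = 0.054). Ube2c, a ubiquitin conjugase of mitotic exit, was at 130 and 163 CPM against 33.3 and 58.9 CPM (1.62, SE 0.25, adjusted p = 0.031). Hist1h2ap was at 154 and 137 CPM against 54.9 and 58.9 CPM, and Hist1h2ae at 78.2 and 146 CPM against 25.0 and 25.2 CPM. Of the 14 cell cycle genes tested, Ccna2 alone passed, and the median of the list was 0.89 against a median near 0 over all genes. In other Cd8 cells the median of the same list between the groups was 0.87, with 0 of 15 genes passing, so the shift was not particular to terminal effector cells. A UMI of Mki67 or Top2a was present in 21.8% and 41.2% of the terminal effector cells of the Runx1::Runx1t1 pools and in 17.2% and 12.8% of those of the control pools, at unequal depths. Lmnb1 was also the 1 senescence gene of 8 that passed. In other Cd8 cells none of these 5 genes passed, but Lmnb1 was at 81.6 and 108 CPM in the Runx1::Runx1t1 pools against 39.8 and 47.9 CPM (log2 fold change 1.05, adjusted p = 0.071). Ccna2 and Ube2c had log2 fold changes of 1.47 and 1.57 there (adjusted p = 0.096 and 0.11), and Hist1h2ap and Hist1h2ae 0.70 and 0.45 (adjusted p = 0.098 and 0.27).

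The other calls but Cpa3 were TCR segments. Trav16 was at 35.2 and 40.3 CPM in the Runx1::Runx1t1 pools and at 0 in both control pools, at least 14.6-fold higher against a floor of 3 UMIs over the control group. Of the 20 terminal effector cells with a TRAV16 contig in pool 1, 18 were of the clone shown above, and all 3 in pool 2 were of 1 clonotype. Trbv30 was at 39.1 and 20.2 CPM against 0 in both control pools, at least 13.6-fold higher by the same floor, and 11 of its 13 cells in pool 1 were of 1 clonotype. In pool 2 no terminal effector cell had a TRBV30 contig, although 13 UMIs of the gene were counted there. Trbv13-2 was at 226 and 399 CPM against 113 and 95.9 CPM. It was carried by 33 cells in pool 1, of which 24 were of 1 clonotype, and by 15 cells in pool 2, where the largest of 4 clonotypes held 4. These counts include contigs called TRBV12-2+TRBV13-2. Trbv16 was lower, at 52.0 and 104 CPM against 428 and 289 CPM, and was carried by 2, 1, 13 and 21 cells. In control pool 1 the 13 cells lay in 7 clonotypes, and in control pool 2 the 7 cells with a clonotype each had one of their own. Trav7-3, the other lower gene, was at 1.12 and 0 CPM against 26.6 and 20.2 CPM.

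Cpa3, the carboxypeptidase of mast cells and their progenitors, was at 54.8 and 23.3 CPM in the Runx1::Runx1t1 pools and 0 in the control pools, at least 18.5-fold higher. Of the 98 UMIs in pool 1, 67 lay in 1 cell. A Cpa3 UMI was present in 11.3% and 15.3% of the terminal effector cells of the Runx1::Runx1t1 pools, in 10.4% and 12.99% of naive-class cells of the same pools, and in 14.7% and 17.8% of cells outside the Cd8 gate, whose level was 515 and 496 CPM. The share was close to that of naive-class cells, which should lack the gene, and no expression is read from it. The 0 of 87 and 0 of 109 control cells allow shares of cells with a UMI of up to 3.45% and 2.75%. Cpa3 was the 1 gene of the 11 that was also called in other Cd8 cells, where 6 of 13543 genes were higher (0.0443%) and 5 lower (0.0369%).

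None of the transcription factor, granule, cytokine, surface, migration, NK receptor, inhibitory, cytokine receptor or cytoskeleton genes passed between the groups within terminal effector cells. Gzma was at 4049 and 5191 CPM against 2576 and 2633 CPM and missed the threshold (log2 fold change 0.81, SE 0.15, adjusted p = 0.062). Zeb2 lay lower in both Runx1::Runx1t1 pools, at 267 and 225 against 286 and 328 CPM (adjusted p = 0.62). With 2 pools a group, a missed threshold does not show that the levels were alike.

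The difference between terminal effector and other Cd8 cells was itself compared between the groups by an interaction term. By edgeR it was larger in Runx1::Runx1t1 for 26 of 12778 genes (0.203%) and smaller for 49 (0.383%). That fit pooled the spread over all genes, so a gene's own spread between pools did not enter its test. With limma voom, which keeps part of each gene's own spread and was added after seeing the data, 0 genes passed in either direction (783 had an unadjusted p under 0.05), and by DESeq2 5 and 12 did. The edgeR calls are therefore not read as differences between the groups, and the pools' own ratios are given as values. These ratios are on the TMM scale with a prior count of 2 UMIs, so they differ from ratios of the CPM given above. For Gzma, the log2 ratio of terminal effector over other Cd8 cells was 4.02 and 2.78 in the Runx1::Runx1t1 pools and 6.03 and 5.72 in the control pools. The groups differed by -2.47 on this scale (SE between pools 0.64, limma voom adjusted p = 0.26). The level of Gzma in other Cd8 cells differed by a larger fold between the groups than the level in terminal effector cells did. For Gzmb the ratios were 2.51 and 1.73 against 3.94 and 3.53, a difference of -1.62 (SE 0.44). For Lag3 they were -1.31 and -2.37 against 1.54 and 0.98, a difference of -3.10 (SE 0.60). Klrk1 went the other way, with 1.84 and 2.06 against 0.90 and 1.14, a difference of 0.93 (SE 0.16). These 4 genes were taken from the edgeR calls, so a gap between the groups was favored by the choice. None of them passed by limma voom (adjusted p from 0.20 to 0.36).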

How the data were processed

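Per the labels and the study's methods, the authors made UMI count matrices and TCR contig tables with Cell Ranger 6.1.2 on GRCm38; the annotation release was not given in the sources used here. The values used are the deposited raw UMI counts per gene and barcode, and the deposited V, J and CDR3 calls and UMI counts of TCR contigs. Cells with at least 200 genes and at most 15% mt- UMIs were kept. Doublets were kept in the main analysis; Scrublet (in scanpy 1.11.5, expected rate 5%) served as an alternative, with the top 5% of scores removed where its automatic threshold marked almost none. Counts were summed per pool and class and tested with edgeR 4.0.16 (quasi-likelihood test, TMM, filterByExpr, Benjamini-Hochberg adjustment), with pool as a block except between groups. edgeR's test found changed genes in data simulated from these sums, and no result here rests on that. DESeq2 1.42.0 was an alternative. A clonotype was the same nucleotide CDR3 of the TRA and of the TRB contig with the most UMIs; junctions used a consensus of at least 60% of contigs. Genes named are up to 6 passing and 3 not passing per list, and the 12 largest rises and falls at 10 CPM or more in the same direction in every pool. Pooled animals make up each replicate, so p-values measure the spread between pools, which edgeR moderates over genes. For the interaction its prior degrees of freedom were infinite, so a gene's own spread did not enter; limma 3.58.1 (voom, robust) was added there after seeing the data. The cells, comparators and gene lists were chosen with earlier results of these data known. Exact tests used scipy 1.17.1. Interval and floor values cover counting error only. Gene positions are from the GRCm38 annotation provided. Some genes are not reported here.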

Additional observations from a re-analysis of the deposited data

Results flagged for a closer look

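In the interaction test of terminal effector against other Cd8 cells between the groups, edgeR called 26 genes in one direction and 49 in the other. With limma voom, which keeps part of each gene's own spread between pools, 0 passed (783 at an unadjusted p under 0.05). The edgeR calls are therefore not read as differences between the groups and are listed as values. By edgeR, among the genes named, Gzma (-2.47), Gzmb (-1.59) and Lag3 (-3.15) had the smaller log2 difference in Runx1::Runx1t1, and Klrk1 (0.92), Klrb1c (0.89) and Tyrobp (1.32) the larger one. For Klrb1c, terminal effector against other Cd8 cells were 89.4 to 21.6, 15.5 to 10.5, 66.6 to 48.3 and 130 to 52.0 CPM, so that Runx1::Runx1t1 pool 1 had the widest ratio. For Tyrobp they were 86.1 to 24.9, 3.10 to 16.6, 73.3 to 90.2 and 77.4 to 59.98 CPM. The Runx1::Runx1t1 pools went opposite ways in this gene, and the mean of the pools' own log2 ratios (TMM scale, prior count of 2 UMIs) differed by -0.25 between the groups (SE 2.07), opposite to the edgeR term. No group had enough pools for a search for outlying pools.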

How the results depend on the processing

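Depth, 2 pools a group and 85 to 257 terminal effector cells a pool limit every value. Of the genes named against other Cd8 cells, the Gzmk class and the Pdcd1 Lag3 class, 60 of 92, 77 of 87 and 54 of 68 kept their call under every alternative; between the groups none of 6 did, and of the interactions 0 of 34, since by limma voom, an alternative added after seeing the data, 0 genes passed in either direction. Directions were kept for 90, 87, 68, 6 and 31. The cause of the changes below was not tested. Genes higher and lower against other Cd8 cells were 1010 and 860 with DESeq2, 211 and 441 with cells thinned to 2000 UMIs, 2995 and 713 without TMM, and 765 to 1213 and 804 to 1321 with 1 pool left out, the lowest without Runx1::Runx1t1 pool 1. Against the Gzmk class they were 412 and 368 with DESeq2, 1595 and 432 without TMM, and 455 to 616 and 434 to 601 with 1 pool left out, the lowest again without Runx1::Runx1t1 pool 1. Against the Pdcd1 Lag3 class they were 248 and 214 with DESeq2, 627 and 692 with no filter on low counts, and 164 to 488 and 120 to 420 with 1 pool left out.

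Between the groups, genes higher and lower in terminal effector cells were 96 and 42 with no filter, 3 and 4 with at least 2 receptor UMIs, 2 higher with at least 2 Klrg1 UMIs, 4 lower without Scrublet doublets, 0 higher and 2 lower by edgeR with thinned cells (31 and 40 at an unadjusted p under 0.05 among 1162 tested), 2 and 1 without cells with B or myeloid UMIs, 3 and 1 with no condition on Pdcd1, 4 higher among cells with paired chains, and 3 to 164 and 5 to 122 with 1 pool left out (164 and 122 without Runx1::Runx1t1 pool 1, 75 and 40 without Runx1::Runx1t1 pool 2, 4 and 7 without control pool 1, 3 and 5 without control pool 2). In other Cd8 cells they were 1 to 845 and 2 to 489 with 1 pool left out, the highest without Runx1::Runx1t1 pool 1 and the lowest without a control pool. The interaction counts were 5 and 12 with DESeq2, and 18 to 44 and 27 to 79 with 1 pool left out, the highest without Runx1::Runx1t1 pool 1. With the replicate number as a block, 25 genes were higher and 9 lower in terminal effector cells, among them all 11 of the unblocked fit. The correlation of same-numbered pools' deviations was 0.06 over genes in terminal effector cells and 0.30 in other Cd8 cells; with only 2 pairs and no label that ties the numbers, the pools share a number only.

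The difference in share of terminal effector cells was -0.30 to 2.12 percentage points with 1 pool left out, and reversed without Runx1::Runx1t1 pool 1. Single genes reversed as follows: Cdkn1a against other Cd8 cells to -0.22 with thinned cells, Lyz2 to 0.29 without cells with B or myeloid UMIs, and the interaction terms of Klra7 to -1.26, Klrb1c to -0.27 and Tyrobp to -2.31 without Runx1::Runx1t1 pool 1 (at most 1.39 for Klra7 and 1.29 for Klrb1c with another pool left out), and of Tyrobp to -0.00368 with DESeq2. The difference in expanded share was 40.1 to 55.8 percentage points and that in sharing probability 0.636 to 1.80 with 1 pool left out. Merging clonotypes of cells with a pair of TRB chains, an alternative chosen after seeing the data, gave 46.4 and 1.91 percentage points.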
